A study of Mus musculus with 10 samples.

Results

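The 10 genes of the integrated stress response and of serine synthesis examined here in leukemic spleens were Atf4, Atf5, Atf3, Ddit3, Trib3, Ppp1r15a, Chac1, Asns, Psat1 and Phgdh. They were taken by symbol from the 20813 genes of the expression table, and all 10 were found. RNA had been sequenced from spleens of sub-lethally irradiated mice injected intravenously with T-cell acute lymphoblastic leukemia (T-ALL) cells carrying a conditional Sirt1 knockout allele. The comparison asks which transcripts differ when SIRT1, a NAD-dependent deacetylase, is lost from established T-ALL. The 5 libraries with the genotype label Sirt1 deleted have titles beginning TMX, and the 5 with the label Control have titles beginning VEH. The treatments were tamoxifen in corn oil (3 mg per mouse, intraperitoneal) or corn oil alone, and all samples carry the strain label C57BL/6. Treatment and genotype label divide the samples identically, so an effect of tamoxifen and an effect of the deletion cannot be told apart. The Cre driver, the animals' age and the number of separate leukemias injected are not given in the labels, so the p-values measure the spread between these 10 spleens.

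The integrated stress response starts when a kinase phosphorylates the translation factor eIF2. General translation then slows while Atf4 mRNA is translated more, and the ATF4 protein activates genes for amino acid synthesis, amino acid import, redox control and feedback on eIF2. Serine synthesis from glycolytic intermediates, through PHGDH and PSAT1, is one branch of that programme and is active in many T-cell leukemias. Because ATF4 output is set largely by translation, mRNA values describe only the transcript side of the response.

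Of the 10 genes, Atf4 and Ddit3 rose and Phgdh fell in the libraries labelled Sirt1-deleted, and the other 7 did not pass the test. Atf4 was 1.34-fold higher and Ddit3 1.3-fold higher as ratios of group means, while Phgdh was 1.19-fold higher in controls. The enzyme genes that act downstream of ATF4 in serine and asparagine synthesis did not rise with Atf4. The test was limma on log2(normalized count + 1) over 15276 genes, with Benjamini-Hochberg adjustment and a threshold of 0.05. Over all tested genes 36.1% passed it, 16.8% as higher and 19.4% as lower, so 3 of 10 genes is a share near the background. After upper-quartile rescaling the share of higher genes among all called genes was 58.5%, against 46.4% with the deposited scaling; the same 3 of the 10 genes were called under both.

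Deposited normalized counts had similar totals in all libraries, and totals after normalization do not show the sequencing depth. Sirt1 itself measured 1715 to 2097 in the libraries labelled Sirt1-deleted and 1735 to 1909 in controls (log2 difference 0.05, limma adjusted p = 0.568), so its gene-level value did not follow the label. Which part of the gene the conditional allele removes is not given in the sources used here, and a gene-level value may not show the loss of 1 exon, so this value checks neither the label nor the deletion. The labelled tissue was leukemic spleen, and T lineage transcripts were abundant in every library: the summed normalized count of 14 markers was 182950 to 191022 in controls and 159161 to 176136 in the libraries labelled Sirt1-deleted. Tcf7, a T cell transcription factor gene and the most abundant of these markers, fell from a mean of 77942 to 58426 and so weighs heavily in these sums. Lck, the next most abundant and listed after its values were seen, was not called. Its mean was 28587 in controls and 31393 in the libraries labelled Sirt1-deleted. Of the 14 markers 1 was called higher, 3 lower and 10 neither (limma), so the lower sums do not show a fall across the markers. That is 28.6% called, against 36.1% of all tested genes. Neutrophil transcripts moved with the groups. Of 14 neutrophil markers 13 were called higher, where 16.8% of all tested genes were (limma). None of these markers was at 0 in any library, and their sum was 8399 to 11640 in controls against 26958 to 93469. Of 16 macrophage and monocyte markers 13 were called higher, with sums of 3664 to 4186 against 7401 to 13676. The part of these cells in the differences below was not tested, and in bulk RNA a change in the number of cells of a type cannot be told apart from a change in RNA per cell.

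Sequence motifs upstream of the 10 genes are shown first, because ATF4 is known to act through composite sites that it occupies with C/EBP proteins. RefSeq promoter sequences of the build GRCm38.p6 matched all 10 genes, with 12 start sites in all. The 250 bases before each start were searched on both strands for TGATGNAA, the core of the C/EBP-ATF response element, and for TGACGTCA, the cyclic AMP response element bound by many ATF and CREB proteins, and no window of the 10 genes held both. TGATGNAA was found in 3 of the 12 windows, those of Asns, Atf3 and Chac1, against 3.45% of 32851 promoters of the same length. TGACGTCA was found in 1 of the 12, that of Ppp1r15a, against 1.55% of all promoters. The 10 genes were chosen as genes of the ATF4 response, so these shares cannot be read as a test against all promoters. The matches are printed 5′ to 3′ on the strand of the gene, with the motif in capitals.
Asns, chr6:7693214-7693243, minus strand: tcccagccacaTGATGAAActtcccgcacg
Atf3, chr1:191183425-191183454, minus strand: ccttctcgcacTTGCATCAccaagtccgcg
Chac1, chr2:119351038-119351067, plus strand: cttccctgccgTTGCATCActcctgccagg
Ppp1r15a, chr7:45526269-45526298, minus strand: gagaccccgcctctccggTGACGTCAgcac

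The motif began 23 bases before the RefSeq start of Asns, 110 before that of Atf3, 193 before that of Chac1 and 12 before that of Ppp1r15a. The printed Asns window lies within an exon of the GENCODE M21 annotation, whose start for this gene is farther upstream. The Atf3 window lies between exons of that gene in the same annotation, and those of Chac1 and Ppp1r15a lie upstream of their genes. None of these 4 genes passed the test between the groups. Atf4, Ddit3 and Phgdh, which did, held neither motif in this window, and this says only that these letters are not in these bases. For comparison, 60 bases from 100 to 41 before the start of Atf4 and of Phgdh, which overlap no annotated exon, are printed.
Atf4, chr15:80255084-80255143, plus strand: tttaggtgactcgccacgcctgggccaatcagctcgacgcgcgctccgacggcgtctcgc
Phgdh, chr3:98340010-98340069, minus strand: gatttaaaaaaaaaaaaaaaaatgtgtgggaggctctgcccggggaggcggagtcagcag

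Transcript levels of the 10 genes spanned a wide range. Levels are compared here as normalized counts per kilobase of exonic sequence (GENCODE M21, build mm10), which is approximate because the transcript set used by the authors is not given in the sources used here. Phgdh was the highest, at 5294 ± 116 per kilobase in controls (SD, n = 5). Atf4 followed at 2835 ± 233, Psat1 at 2186 ± 168 and Atf5 at 1089 ± 261. Ddit3 (270 ± 34.4), Ppp1r15a (244 ± 69.8) and Asns (203 ± 28.2) lay close together, with neighbours in that order differing by less than their summed SD. Trib3 (27.2 ± 18.1) and Chac1 (22.8 ± 20.3) were lower and did not differ from each other beyond their spread. Atf3 was the lowest, at 8.21 ± 5.65 per kilobase, also within the spread of Chac1.

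**Figure D1:**
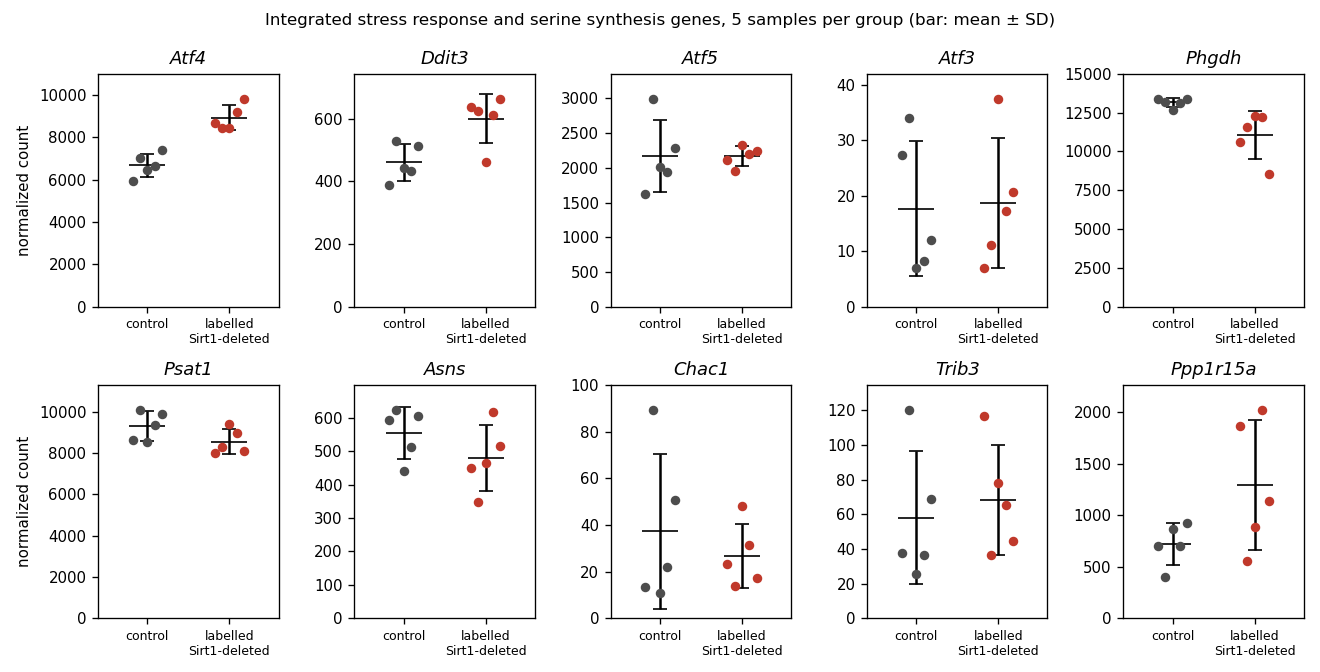
Deposited normalized count (vertical axes, linear from 0) of each of the 10 genes in 5 control libraries (grey) and 5 libraries labelled Sirt1-deleted (red), with the mean ± SD in black. The groups do not overlap for Atf4 (at most 7391 in controls, at least 8438 in the others) and Phgdh (at least 12679 in controls, at most 12302 in the others), and they overlap for the other 8.

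Atf4 encodes the basic leucine zipper transcription factor at the centre of the response (ENSMUSG00000042406.8, chr15:80255184-80257541, plus strand). Its normalized count was 5949, 7003, 6440, 6638 and 7391 in control libraries 2, 3, 4, 5 and 6. It was 8692, 8438, 8458, 9207 and 9827 in libraries 7, 8, 10, 11 and 12 labelled Sirt1-deleted. Every library of the latter group was above every control. The means were 6684 ± 549 and 8924 ± 592 (SD, n = 5 each), a log2 difference of 0.42 (SE 0.06, limma adjusted p = 0.000828). Groups that do not overlap were found for 24.0% of all tested genes. The call held in all 10 fits that each left out a library, with log2 differences of 0.38 to 0.46.

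Ddit3 encodes CHOP, a transcription factor induced by ATF4 and known for its part in death after prolonged stress (ENSMUSG00000025408.15, chr10:127290774-127296288, plus strand). Controls measured 389, 530, 444, 433 and 515 in the same order as above. Libraries labelled Sirt1-deleted measured 639, 624, 464, 611 and 665. Libraries 7, 8, 11 and 12 lay above every control, and library 10 lay among the controls. The means were 462 ± 58.9 and 600.4 ± 79.0 (SD, n = 5 each), a log2 difference of 0.38 (SE 0.11, limma adjusted p = 0.0221). Without library 10 the difference was 0.47 (limma adjusted p = 0.00285). The call was lost without control 2 (0.32, limma adjusted p = 0.0586) or control 5 (0.35, adjusted p = 0.0512). It was also lost without library 7 (0.35, limma adjusted p = 0.0532) or library 12 (0.34, adjusted p = 0.0537). In the exact rank-sum test it was lost too (adjusted p = 0.0823). With 5 libraries per group, that test called only genes whose groups did not overlap, 3659 of all tested genes. The annotation gives the symbol to 2 gene entries, marks the locus as overlapping, and places exons of Mars and Gm4189 on the other strand over it, so how reads were divided there is uncertain.

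Atf5 and Atf3, the other ATF family members of the set, did not pass the test. ATF5 is a stress-induced factor that also relies on upstream reading frames for translation and is tied to the mitochondrial stress response. Its normalized count ranged from 1616 to 2996 in controls, with a median of 2010, and from 1956 to 2328 in the libraries labelled Sirt1-deleted, with a median of 2201 (log2 difference 0.03, 95% interval -0.25 to 0.31, limma adjusted p = 0.891). Control 3 was the highest of all 10 libraries for this gene. Exons of Atf5 also overlap those of Il4i1 and Nup62 on the other strand. ATF3, an early-induced repressor and activator of the same family, had a transcript near the lower end of the measurable range, at 6.97 to 34.0 in controls and 7.0 to 37.5 in the others (log2 difference 0.13, 95% interval -0.96 to 1.22, limma adjusted p = 0.868). Its interval is wide and includes large changes in both directions.

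Phgdh encodes phosphoglycerate dehydrogenase, the first enzyme of serine synthesis (ENSMUSG00000053398.11, chr3:98313170-98339990, minus strand). Controls measured 13367, 13202, 12679, 13151 and 13404. Libraries labelled Sirt1-deleted measured 10638, 11558, 12302, 12198 and 8533. All of these were below every control, with library 12 the lowest by a wide margin and libraries 10 and 11 just under the lowest control. The means were 13161 ± 290 and 11046 ± 1553 (SD, n = 5 each), a log2 difference of -0.26 (SE 0.09, limma adjusted p = 0.0283). The spread was 2.20% of the mean in controls and 14.1% in the libraries labelled Sirt1-deleted. Without library 12 the difference shrank to -0.17 (limma adjusted p = 0.0182). The call was lost without control 2 (-0.26, limma adjusted p = 0.0592), control 3 (-0.26, adjusted p = 0.0521), control 5 (-0.27, adjusted p = 0.0539), control 6 (-0.26, adjusted p = 0.0561) or library 7 (-0.25, adjusted p = 0.0607), and without the intensity trend in limma (adjusted p = 0.0612).

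Psat1, whose product carries out the next step of serine synthesis, did not pass the test (ENSMUSG00000024640.9, chr19:15904678-15947337, minus strand). Controls measured 8646, 10083, 8511, 9342 and 9911. Libraries labelled Sirt1-deleted measured 7995, 8309, 9394, 8966 and 8075. Libraries 10 and 11 lay among the controls, and the other 3 lay below all of them. The log2 difference was -0.12 (SE 0.06, 95% interval -0.26 to 0.02, limma adjusted p = 0.152). It was called lower without libraries 10 and 11 together (-0.19, limma adjusted p = 0.0252) and with sample weights (-0.16, limma adjusted p = 0.0422). Psph, the phosphatase that completes the pathway, measured 1488 ± 181 against 1512 ± 33.1 in controls (SD, n = 5 each; log2 difference -0.03, limma adjusted p = 0.773).

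Asns encodes asparagine synthetase, a classical ATF4 target and the enzyme whose low level in lymphoblastic leukemia underlies treatment with asparaginase. Its normalized count was 440.0 to 624 in controls and 349 to 618 in the libraries labelled Sirt1-deleted, with medians of 593 and 465. The ranges overlapped, and library 8, at 349, lay below every control. The log2 difference was -0.22 (SE 0.14, 95% interval -0.53 to 0.09, limma adjusted p = 0.239), so a rise of the size seen for Atf4 lies outside the interval.

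Chac1 and Trib3, usually counted among the most responsive targets of ATF4 and CHOP, varied between spleens within each group more than between the groups. CHAC1 degrades glutathione. Its normalized count was 13.5, 89.4, 10.6, 21.9 and 50.9 in controls and 23.2, 13.8, 48.3, 31.5 and 17.1 in the libraries labelled Sirt1-deleted. The highest and the lowest value were both from controls, and the control SD was 89.1% of the mean. The log2 difference was -0.16 (95% interval -1.32 to 1.00, limma adjusted p = 0.844), and it changed sign without control 3 (0.26), control 6 (0.06) or library 8 (0.03). TRIB3, a pseudokinase that restrains CHOP and AKT, measured 37.9, 120.2, 25.6, 36.8 and 69.0 in controls. It measured 117, 36.5, 78.1, 65.5 and 44.7 in the others. Control 3 and library 7 were the highest of their groups, and the log2 difference was 0.34 (95% interval -0.54 to 1.22, limma adjusted p = 0.547).

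Ppp1r15a encodes GADD34, the inducible subunit that directs a phosphatase to eIF2 and so ends the response. Controls measured 698, 397, 867, 699 and 924. Libraries labelled Sirt1-deleted measured 1863, 556, 885, 2020 and 1137. Libraries 7, 11 and 12 were above every control, while libraries 8 and 10 lay among them. The log2 difference, 0.75, was the largest in size among the 10 genes but did not pass (SE 0.33, 95% interval 0.04 to 1.46, limma adjusted p = 0.0893). Without library 7 the difference was 0.58 (limma adjusted p = 0.2), and without library 11 it was 0.55 (adjusted p = 0.188). Of the 10 fits that each left out 1 library, only that without library 8 passed (1.02, limma adjusted p = 0.0169). Library 8 also had the highest sums of neutrophil and of macrophage and monocyte markers, 93469 and 13676, and the lowest sum of 11 erythroid markers, 39594. The globin gene Hbb-bs was the most abundant erythroid marker and is listed after its values were seen. Its mean was 26726 in controls and 27044 in the libraries labelled Sirt1-deleted, so globin transcripts weigh heavily in the erythroid sum. The erythroid sum was 134017 in library 7 and 161324 in library 11, where Ppp1r15a was highest. Among controls it was 43283 in library 3, where Ppp1r15a was lowest, and 135125 in library 6, where it was highest. The order of the sums was not kept throughout. Library 12 had a sum of 58061 and Ppp1r15a at 1137, and library 10 had 97249 and 885. Control 2 had a sum of 126992 and Ppp1r15a at 698, and control 4 had 105253 and 867. The part of erythroid cells in the Ppp1r15a values was not tested. Ppp1r15b, the constitutive counterpart, had a log2 difference of 0.12 (limma adjusted p = 0.0547). Exons of Ppp1r15a overlap those of Tulp2 on the other strand.

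**Figure D2:**
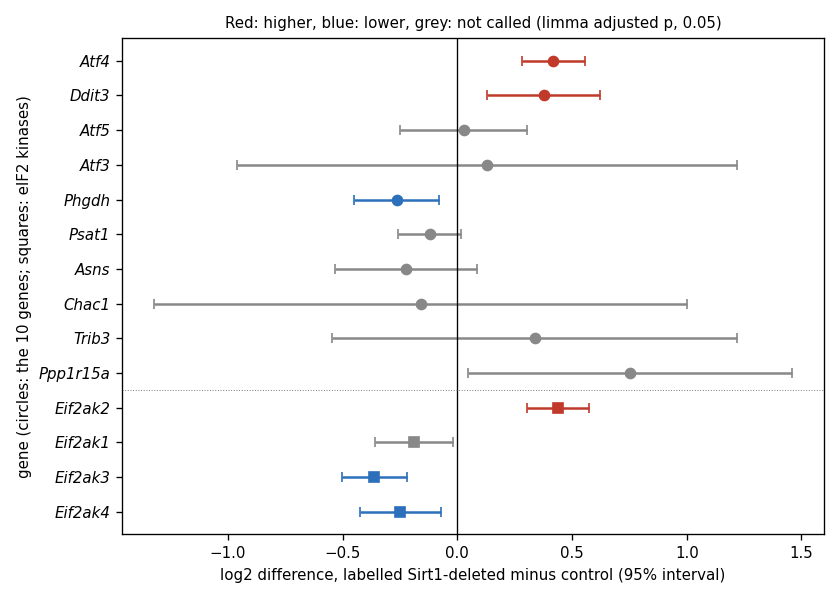
Log2 difference (horizontal axis, labelled Sirt1-deleted minus control, on log2(normalized count + 1)) with its 95% interval for the 10 genes (circles) and the 4 eIF2 kinase genes (squares). Intervals of Atf3, Chac1 and Trib3 are the widest, while those of Atf4, Ddit3, Ppp1r15a and Eif2ak2 lie above 0 and those of Phgdh and of Eif2ak1, Eif2ak3 and Eif2ak4 below it; red and blue mark calls, and Ppp1r15a and Eif2ak1 were not called after adjustment.

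Differences between libraries of the same group ran across several of the genes. Among the controls, library 3 was the highest for 7 of the 10 genes (Atf5, Atf3, Ddit3, Trib3, Chac1, Asns and Psat1) and the lowest for Ppp1r15a, while library 4 was the lowest for 6 of them (Atf3, Trib3, Chac1, Asns, Psat1 and Phgdh). Among the libraries labelled Sirt1-deleted, library 10 was the highest for 5 (Atf5, Atf3, Chac1, Psat1 and Phgdh) and the lowest for Ddit3, and library 8 was the lowest for 6 (Atf4, Atf5, Trib3, Chac1, Asns and Ppp1r15a). These counts describe the libraries and were drawn up after the values were seen.

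**Figure D3:**
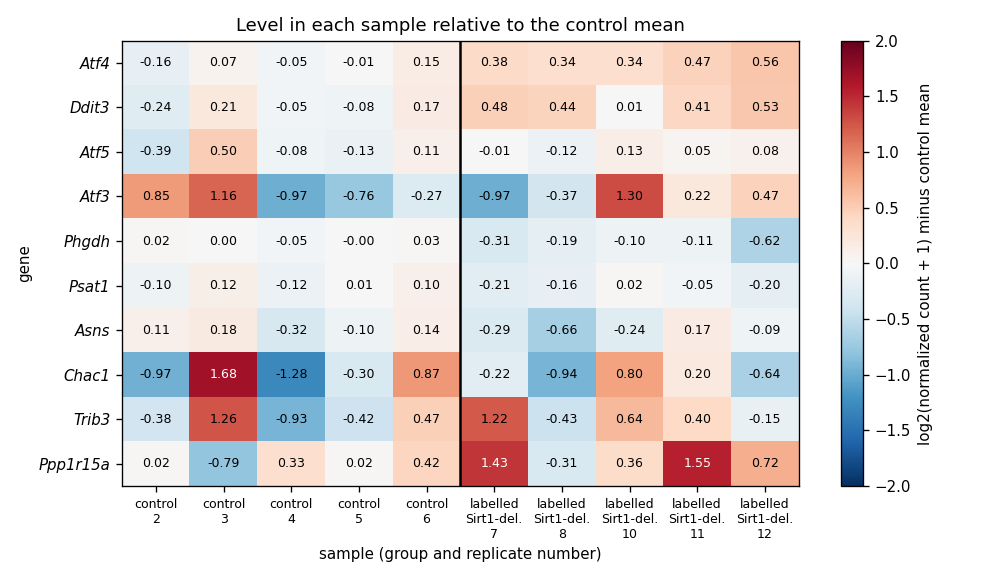
Log2(normalized count + 1) of each of the 10 genes (rows) in each library (columns), minus the mean of the control libraries, from blue (lower) to red (higher). The row of Atf4 is positive in all 5 libraries labelled Sirt1-deleted and that of Phgdh negative in all 5, whereas Chac1 spans -1.28 to 1.68 among the controls alone.

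Ratios between genes within a library, which do not depend on the scaling between libraries, were compared for 6 pairs. None passed an exact two-sided permutation test after Benjamini-Hochberg adjustment over the 6, where the smallest possible raw p is 0.00794. One pair had a raw p under 0.05: Atf5 relative to Atf4 was lower by 0.39 on the log2 scale (mean ± SD of 5 libraries -2.04 ± 0.107, against -1.65 ± 0.251 among controls; p = 0.0159 by exact permutation and 0.0952 once adjusted), with libraries 7, 8, 11 and 12 below every control and library 10 among the controls. Without control 2 it passed (-0.45, adjusted permutation p = 0.0476). Ddit3 relative to Atf4 differed by -0.04 (exact permutation p = 0.698), and Ppp1r15a relative to Ppp1r15b by 0.63 (exact permutation p = 0.175).

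The genes that start the response moved unequally. Of 15 genes for eIF2 kinases, eIF2, its exchange factor eIF2B and regulators, 3 rose, 4 fell and 8 did not pass (limma). That is 46.7% called, against 36.1% of all tested genes, and the median log2 difference was -0.07 where that of all tested genes was -0.00014. Eif2ak2, which encodes the double-stranded RNA sensor PKR and is known as an interferon-induced gene, rose from 1494 ± 114 to 2023 ± 108 normalized counts (mean ± SD, n = 5; difference in log2 0.44, limma adjusted p = 0.000621). Every library labelled Sirt1-deleted, at 1830 to 2083, was above every control, at 1388 to 1686. Eif2ak3, which encodes the endoplasmic reticulum kinase PERK, fell from 1539 ± 113 to 1196 ± 72.7 (difference in log2 -0.36, limma adjusted p = 0.00188), again without overlap. Eif2ak4, which encodes the amino acid sensor GCN2, fell from 878 ± 54.3 to 742 ± 77.8 (difference in log2 -0.25, limma adjusted p = 0.0303). Eif2ak1, which encodes the heme-regulated kinase HRI, measured 2697 ± 272 against 3075 ± 272 and did not pass (log2 difference -0.19, limma adjusted p = 0.0745).

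Subunits of eIF2 and eIF2B also went in both directions. Eif2s1, the gene of the subunit that is phosphorylated, had a log2 difference of -0.38 (limma adjusted p = 0.0286), with 4436 to 7628 in the libraries labelled Sirt1-deleted and 7778 to 8223 in controls. Eif2s2 rose by 0.32 (limma adjusted p = 0.00246). Among the exchange factor genes Eif2b5 rose by 0.20 (limma adjusted p = 0.00295) and Eif2b2 had a difference of -0.34 (limma adjusted p = 0.00688). Without control 2, 2 genes of this list were called lower in place of 4.

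Among other enzymes of serine, glycine and folate metabolism, 2 of 11 genes fell and 9 did not pass (limma), 18.2% called lower where 19.4% of all tested genes were. The median log2 difference was -0.03, but -0.15 with a minimum mean of 50, -0.12 with quantile normalization, -0.09 without library 11 and 0.03 with upper-quartile rescaling. Mthfd1l, an enzyme of mitochondrial formate release, fell from 4889 ± 324 to 3934 ± 493 normalized counts (mean ± SD, n = 5; difference in log2 -0.32, limma adjusted p = 0.00898). Shmt1, the cytosolic serine hydroxymethyltransferase, fell from 3878 ± 181 to 3230 ± 371 (difference in log2 -0.27, limma adjusted p = 0.0136). Shmt2, its mitochondrial counterpart, measured 11197 ± 888 against 12429 ± 747 and did not pass (log2 difference -0.15, limma adjusted p = 0.0688). Without library 10, 4 of the 11 were called lower.

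Of 26 further genes reported as ATF4 or CHOP targets, 4 rose, 7 fell and 15 did not pass (limma). That is 42.3% called, close to the 36.1% of all tested genes, and the median log2 difference was -0.13. Sesn2, an inhibitor of mTORC1 that p53 also activates, rose from 437 ± 38.5 to 834 ± 130.0 normalized counts (mean ± SD, n = 5; difference in log2 0.92, limma adjusted p = 0.000271). Tnfrsf10b, a TRAIL death receptor gene that is likewise known as a p53 target, rose from 248 ± 31.8 to 375 ± 28.7 (difference in log2 0.60, limma adjusted p = 0.00158). Neither overlapped between the groups. Pck2, the mitochondrial phosphoenolpyruvate carboxykinase, rose by 0.36 (limma adjusted p = 0.00906). Nupr1 rose by 1.62 (limma adjusted p = 0.015) at low values of 1.40 to 15.2 in controls and 14.5 to 28.5 in the others.

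The genes of this list that fell were led by a glycine transporter and an mTORC1 inhibitor. Slc6a9, which imports glycine, fell from 531 ± 143 to 296 ± 149 normalized counts (mean ± SD, n = 5; difference in log2 -0.98, limma adjusted p = 0.0414). It was lowest in library 8 (115) and library 12 (172), which had the lowest erythroid sums of their group (39594 and 58061), and highest in library 11 (466, sum 161324). In controls Slc6a9 was lowest in library 3 (340, sum 43283) and highest in library 6 (706, sum 135125). Library 7 departed from the order of the sums, with Slc6a9 at 326 and a sum of 134017, where library 10 had 402 and 97249. At 326, library 7 was also below every control. The part of erythroid cells in the Slc6a9 values was not tested. Ddit4, which restrains mTORC1, went from 6366 ± 1474 to 4219 ± 987 (difference in log2 -0.60, limma adjusted p = 0.0154), and Jdp2, a basic leucine zipper repressor, had a difference of -0.38 (limma adjusted p = 0.0308). Slc7a5, the large neutral amino acid transporter, fell from 7197 ± 587 to 5370 ± 1030 (difference in log2 -0.44, limma adjusted p = 0.00879). The other 3, outside the rule for naming genes and listed after their values were seen, were the transporter genes Slc7a1 (-0.34) and Slc38a2 (-0.31) and the proline synthesis gene Aldh18a1 (-0.33). The 7 that fell overlapped between the groups. None was therefore called by the exact rank-sum test, which called only genes without overlap.

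ATF4 is also known to induce some of the aminoacyl-tRNA synthetases of the cytosol. The list here was of the enzyme family and was not limited to those targets. Of 20 genes, 4 fell and 16 did not pass (limma), a share near the 19.4% of all tested genes called lower. Of the 20 log2 differences 16 were below 0, with a median of -0.14, which was -0.08 with upper-quartile rescaling or quantile normalization, -0.09 without library 12 and -0.22 without libraries 10 and 11. Kars, the lysine enzyme, fell from 9795 ± 332 to 7831 ± 1148 normalized counts (mean ± SD, n = 5; difference in log2 -0.34, limma adjusted p = 0.0106). Iars (-0.29, limma adjusted p = 0.0329), Sars (-0.21, adjusted p = 0.0381) and Qars (-0.19, adjusted p = 0.0237) were the others. The number called lower depended on the libraries: it was 1 without control 2, 9 without library 10 and 11 without libraries 10 and 11, and 2 without any of controls 3, 5 and 6 or libraries 7, 8 and 12 singly. After upper-quartile rescaling 1 was called lower and 1 higher.

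Chaperone genes of the endoplasmic reticulum are driven mainly by ATF6 and XBP1 and not by ATF4. Their list here also held genes of regulators, such as Atf6, and of protein transport and degradation. Genes of this list rose more often than they fell. Of 19 genes, 9 rose, 1 fell and 9 did not pass (limma), where 16.8% of all tested genes rose and 19.4% fell. The median log2 difference was 0.15. The exact rank-sum test, which called only genes whose groups did not overlap, called 5 of the 19 higher. Creld2 rose from 1486 ± 184 to 2270 ± 116 normalized counts (mean ± SD, n = 5; difference in log2 0.62, limma adjusted p = 0.000413), and Manf, a secreted protein of the same compartment, from 3647 ± 373 to 5120 ± 295 (difference in log2 0.49, limma adjusted p = 0.000635). Hsp90b1, the chaperone GRP94, rose by 0.39 (limma adjusted p = 0.00236) and Sdf2l1 by 0.32 (limma adjusted p = 0.0319). The 1 gene that fell was Atf6 itself, from 1846 ± 115 to 1391 ± 96.7 (difference in log2 -0.41, limma adjusted p = 0.000906). Hspa5, the chaperone BiP, had a log2 difference of 0.07 (limma adjusted p = 0.555).

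Mitochondrial stress genes were split. Of 10 genes, 3 rose, 3 fell and 4 did not pass (limma), which is 60% called against 36.1% of all tested genes, with a median log2 difference of -0.03. The matrix chaperonin genes Hspe1 and Hspd1 rose, Hspe1 from 7346 ± 852 to 12140 ± 1177 normalized counts (mean ± SD, n = 5; difference in log2 0.73, limma adjusted p = 0.00023) and Hspd1 by 0.30 (limma adjusted p = 0.0153). Clpp, a matrix protease subunit, rose by 0.14 (limma adjusted p = 0.0307). The protease genes Yme1l1 (-0.38, limma adjusted p = 0.00674) and Lonp1 (-0.23, adjusted p = 0.0163) fell, as did Dele1 (-0.18, adjusted p = 0.0247), whose product relays mitochondrial stress to HRI.

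**Figure D4:**
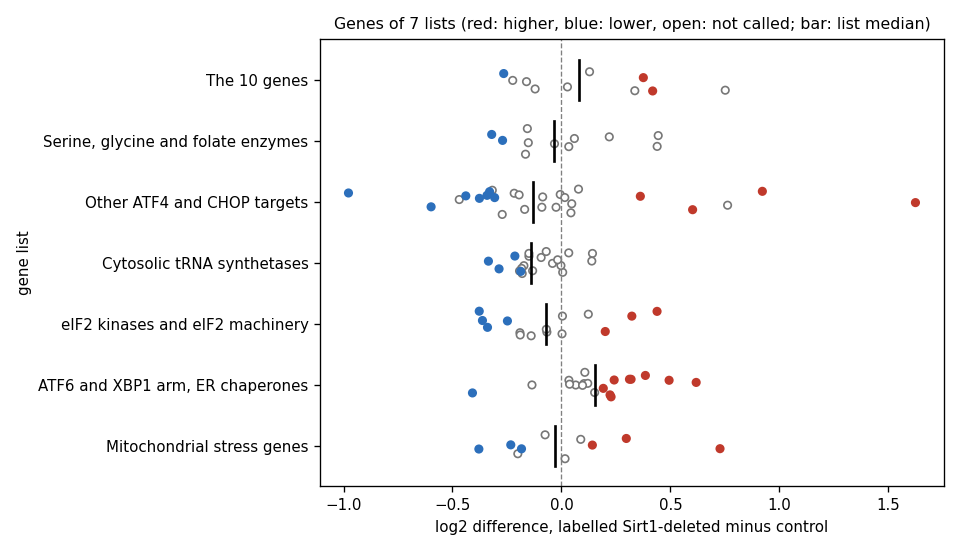
Log2 difference (horizontal axis, labelled Sirt1-deleted minus control) of each tested gene in the set of 10 genes and in 6 further lists (rows), with called genes filled (red higher, blue lower), other genes open and a bar at each list's median. Bars of the chaperone list (0.15) and of the 10 genes (0.08) lie to the right of the dashed median of all tested genes, and those of the ATF4 and CHOP targets (-0.13) and tRNA synthetases (-0.14) to the left.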

How the data were processed

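The values deposited by the authors are gene counts after DESeq normalization (unit: signal, since they are no longer whole numbers). The submitters' processing notes also name kallisto 0.44.0 and the build mm10. Which transcript set was quantified, and whether genes were filtered, is not given in the sources used here. Between 68.0% and 74.0% of low values lay within 0.1 of a whole multiple of the most frequent low value, so whole reads were not recovered, no count model was run, and depth per library is unknown. Log2(value + 1) was fitted for the 15276 genes with a mean of at least 10, using limma 3.58.1 in R 4.3.3. The fit had a group term and an intensity trend, with Benjamini-Hochberg over all tested genes. It was first checked on simulated data with the same dispersion for every gene and both groups. That check does not cover the unequal spreads found here. Fold changes on the log2(value + 1) scale understate the change of low genes. Ratios were compared over all 252 assignments of samples to groups. The 10 genes and the lists were chosen with earlier results of these data known. Named genes are the 10, Sirt1, the 4 eIF2 kinases, Psph and Shmt2, and up to 4 called genes with the largest rise and fall in each list (2 for lineage markers); Hspa5, Ppp1r15b, Tcf7 and the others marked in the text were added after values were seen. Alternatives were other pseudocounts, filters, scalings, limma settings, an exact rank-sum test and the omission of libraries. Gene loci came from GENCODE M21 and promoter sequences from RefSeq, both on GRCm38, which is mm10. Figures were drawn with matplotlib 3.10.9.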

Additional observations from a re-analysis of the deposited data

Results flagged for a closer look

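Among 106 sets of 5 libraries (each named gene in each group), 5 held a library whose gap to its nearest neighbour exceeded 0.71 of the group's range, where chance at 1 in 20 gives 5.3. Ddit3 in the libraries labelled Sirt1-deleted had a ratio of 0.733, with library 10 at 464 against 611 to 665 in the others. Eif2ak2 in the same group had a ratio of 0.909, with library 10 at 1830 against 2060 to 2083. Hsp90b1 in the same group had a ratio of 0.726, with library 7 at 27940 against 29800 to 30500. Control 2 was the highest control for Ddit4 (ratio 0.717, 8849 against 5231 to 6256) and for the T cell surface gene Cd5 (ratio 0.792, 6202 against 5389 to 5557).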

How the results depend on the processing

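No paired analysis was possible because no number in the titles occurs in both groups. The call of Atf4 held under every alternative run; Sirt1, Asns, Trib3 and Chac1 were called under none. Reversals, all without a call, were seen for Atf3 (-0.17 with quantile normalization, -0.14 with sample weights, -0.29 without libraries 10 and 11), Atf5 (-0.057 with sample weights, -0.015 without libraries 10 and 11) and the ratio of Ddit3 to Atf4 (0.056 without libraries 10 and 11). Ddit3 lost its call in the rank-sum test (0.38) and Phgdh without the intensity trend (-0.26), while Psat1 gained one with sample weights (-0.16) and without libraries 10 and 11 (-0.19). Leaving out each library in turn gave ranges of -0.16 to 0.42 for Atf3, -0.071 to 0.15 for Atf5, -0.48 to 0.26 for Chac1, 0.32 to 0.47 for Ddit3, -0.31 to -0.17 for Phgdh, 0.55 to 1.02 for Ppp1r15a, -0.45 to -0.28 for the ratio of Atf5 to Atf4 and -0.079 to 0.029 for that of Ddit3 to Atf4. Of the 10 genes, these fits called 1 to 3 higher and 0 to 1 lower; the rank-sum test called 1 higher, limma without trend called 0 lower, and sample weights or omission of libraries 10 and 11 called 2 lower. Over all tested genes the rank-sum test called 1691 higher and 1968 lower, against 2562 and 2956. That test called only the 3659 genes whose groups did not overlap, so its calls restate that separation. It called 5 genes of the chaperone list higher, 2 ATF4 and CHOP targets higher and 0 lower. Lower tRNA synthetase genes numbered 1 with upper-quartile rescaling, 2 with quantile normalization, 2 without trend, 9 with sample weights, 1 with the rank-sum test and 11 without libraries 10 and 11, and 1 to 9 when single libraries were left out; 1 was called higher with either rescaling and 0 to 1 without single libraries. Lower eIF2 genes numbered 2 to 5 and lower serine and folate genes 2 to 4 without single libraries, the latter 4 without libraries 10 and 11. The causes were not tested. With a minimum mean of 50, Atf3 and Chac1 were not tested.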

Other observations

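Genes with a pattern like that of Atf4 were looked for as a description, by the Pearson correlation of log2 values centred on their group mean over the 10 libraries, which share their normalization. The 5 highest among the tested genes outside the set were Acsl5, an acyl-CoA synthetase gene (0.97), Il11 (0.95), Ndufs4, a subunit gene of respiratory complex I (0.94), Olfr646 (0.93) and Snrnp27, a spliceosome gene (0.93). All of these were also called higher in the libraries labelled Sirt1-deleted, as were 16.8% of all tested genes (limma). The log2 differences were 0.27 for Acsl5, 0.97 for Il11, 0.36 for Ndufs4, 0.92 for Olfr646 and 0.46 for Snrnp27. The SE was 0.29 for Il11 and 0.30 for Olfr646, against 0.07 for Acsl5. With so many genes and 10 libraries, high values arise without any shared regulation.

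Lineage markers other than those of myeloid cells were also counted. Of 14 T lineage markers 1 rose (Cd3d, log2 difference 0.17) and 3 fell (limma), namely Cd5 (-0.61), Cd8b1 (-0.47) and Tcf7 (-0.42). That is 28.6% called, where 36.1% of all tested genes were. Within the neutrophil list the largest rises were those of Ly6g (3.42) and Ltf (2.83), and within the macrophage and monocyte list those of Lyz2 (1.94) and Fcgr1 (1.49). No B cell marker of 8 and no erythroid marker of 11 was called by limma or by the exact rank-sum test; 2 and 1 of them had an unadjusted limma p under 0.05.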
